A study of Mus musculus with 15 samples.

Results

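The regions described here are stretches of mouse chromatin that were open in fetal preSertoli cells at both stages sampled and in embryonic stem (ES) cells. They had no peak in 5 other lists, of skin fibroblasts and of whole adult brain, heart, kidney and liver. The whole organs are counted among cell types below, although each is a mix of cells. The regions were chosen by merging all 8 deposited lists of DNase hypersensitive peaks, joining peaks that touched or overlapped. A merged region was kept when it held a peak of the E13.5 and of the E15.5 preSertoli list and of the ES list, and none of the skin fibroblast, brain, heart, kidney or liver list. This gave 3368 of 237612 merged regions (1.42%), or 6.10% of the 55192 regions open at both preSertoli stages. They are called preSertoli-ES regions below. All positions are in mouse build mm9, counted from 1.

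PreSertoli cells enclose the germ cells in the cords of the fetal testis and direct male development of the gonad, with the transcription factor Sox9 as a central regulator. ES cells are cultured pluripotent cells, held in that state by a network of transcription factors that includes Pou5f1, Sox2 and Nanog, and fetal germ cells share part of that network. DNase-seq maps open chromatin of any kind, which includes promoters, enhancers and sites bound by architectural proteins such as CTCF. The histone mark H3K27ac is found at active promoters and enhancers, and many open sites do not carry it.

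DNase-seq was run on 8 libraries, 1 for each cell type or stage. PreSertoli cells also gave 3 RNA-seq libraries at E15.5, each from a separate pool of sorted cells, and, at E13.5, 2 ChIP-seq libraries for H3K27ac and 2 inputs. PreSertoli cells for DNase-seq were sorted from testes of E13.5 and E15.5 male embryos from homozygous Sox9-ECFP transgenic C57BL/6J fathers and CD-1 mothers, and the labels call these embryos Sox9 heterozygous. The RNA-seq and ChIP-seq cells are labelled as sorted cells of the same strain cross, and those labels name no reporter. The ES cells (JM8, C57BL/6J, grown without feeders), the cultured skin fibroblasts from adult mice and the adult brain, heart, kidney and liver were all C57BL/6J. PreSertoli cells were frozen after sorting and the adult tissues were frozen and pulverized, whereas the cultured cells were used at once. Per the labels' protocols, chromatin of preSertoli cells was cut by their own nucleases, while the other 6 types followed a DNase I protocol, so cell type and digestion cannot be told apart between them. By the rule a preSertoli-ES region has peaks under both kinds of digestion, as has any region shared with another type. Regions open in preSertoli cells alone have peaks under 1 kind only. Between them and preSertoli-ES regions, a role of digestion was not tested. With 1 library per cell type there is no replicate check, no p-value compares cell types, and a missing peak does not show closed chromatin. The reads behind each list are unknown.

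ES cells shared more regions with preSertoli cells alone than any other cell type in the series. The 3368 preSertoli-ES regions made up 3.61% of the 93367 regions of the ES list. Built in the same way, regions shared by preSertoli cells with a single other type numbered 1009 for heart (1.52% of heart regions), 781 for skin fibroblasts (1.34%), 743 for brain (1.24%), 595 for kidney (0.872%) and 444 for liver (0.646%). No list was longer than that of ES cells, with 96536 peaks. When each list was reduced to its 62218 highest-scoring peaks, the length of the shortest list, 1585 preSertoli-ES regions were left (2.61% of ES regions), against 728 for heart, 715 for skin fibroblasts, 695 for brain, 423 for kidney and 305 for liver. These counts follow from the peak lists that defined the regions and are a description.

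Most chromatin shared by preSertoli and ES cells was shared more widely. Of 36732 regions open at both preSertoli stages and in ES cells, 20859 (56.8%) had a peak in all of the other 5 lists, 4375 (11.9%) in 4 of them, and 3368 (9.17%) in none. Just outside the rule stood 2866 regions with a peak in exactly 1 of the 5 lists. That peak belonged to skin fibroblasts in 1134 regions, to brain in 685, to kidney in 486, to heart in 384 and to liver in 177, and in 411 regions it lay in the lowest 10% of its own list. A further 2816 regions were open in E13.5 preSertoli cells and ES cells but not at E15.5, and 1629 at E15.5 but not at E13.5, with none of the 5 lists. Just inside the rule, 700 preSertoli-ES regions had at least 1 of their 3 peaks in the lowest 10% of its list. A peak of an excluded list lay within 150 bp of 3.86% of preSertoli-ES regions and within 1000 bp of 28.9%, against 3.60% and 26.0% of regions open in preSertoli cells alone.

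Most regions held a single peak of each list. In 3153 regions (93.6%) each list contributed exactly 1 peak, and in 95.7% of these a stretch was covered by all 3 peaks, with a median length of 182 bp. Peaks were joined only where they touched or overlapped, so midpoints in a region had to be close, and the distances are a description. Midpoints of E13.5 and E15.5 preSertoli peaks were a median of 31.0 bp apart (75% within 68.0 bp), those of E13.5 preSertoli and ES peaks 32.5 bp (84.0 bp), and those of E15.5 preSertoli and ES peaks 40.5 bp (103 bp). The median length shared by 2 peaks, as a percentage of their joint length, was 65.1% for the preSertoli stages, 57.9% for E13.5 preSertoli and ES peaks, and 52.3% for E15.5 preSertoli and ES peaks. Median peak widths inside the regions were 313 bp at E13.5, 291 bp at E15.5 and 340 bp in ES cells. The merged preSertoli-ES regions had a median width of 478.5 bp, against 389 bp for regions open in preSertoli cells alone and 1034 bp for regions open in all 8 lists.

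PreSertoli-ES regions were of middling strength in each of the 3 lists. Strength is given as a percentile of the authors' peak score within a list, where 100 is the strongest peak, since scores of different lists are not on 1 scale. The median percentile was 51.0 at E13.5 (quartiles 31.9 and 66.7), 44.4 at E15.5 (25.5 and 62.3) and 48.4 in ES cells (26.5 and 67.3). Few were among the strongest 10% of a list, with 1.07% at E13.5, 1.69% at E15.5 and 1.81% in ES cells, and none reached the strongest 10% in all 3. Regions open in all 8 lists had medians of 85.9, 83.7 and 86.3. ES peaks inside preSertoli-ES regions (median 48.4) ranked above ES peaks found in no other list (median 32.3). The scores come from the lists that chose the regions, and the number of lists with a peak sets these classes apart. The percentiles are therefore a description. A region with several peaks of a list takes the highest of them.

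**Figure D1:**
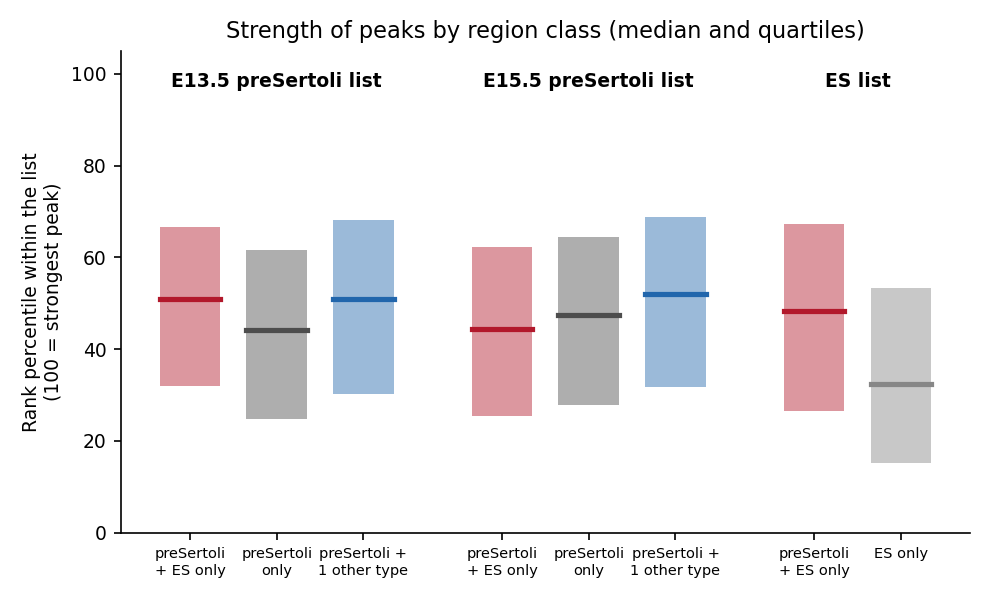
Percentile of the authors' peak score within each list (y axis, 100 is the strongest peak) for preSertoli-ES regions (red), regions open in preSertoli cells alone (dark grey), regions shared by preSertoli cells with 1 of the 5 other types (blue) and regions of ES cells alone (light grey). Boxes span the quartiles and lines are medians; the red median is 51.0 at E13.5, 44.4 at E15.5 and 48.4 in ES cells.

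Ranks of preSertoli-ES regions were more alike between the preSertoli stages than between preSertoli and ES cells. Across the 3368 regions, Spearman's rho between percentiles was 0.45 for E13.5 and E15.5 preSertoli cells, 0.12 for E13.5 preSertoli and ES cells, and 0.01 for E15.5 preSertoli and ES cells. For regions open in preSertoli cells alone, rho between the stages was 0.40. Regions open in all 8 lists, which ranked higher in each list, had values of 0.76, 0.80 and 0.65 for the same pairs. These are descriptions across regions, which are not independent replicates. Of preSertoli-ES regions, 57.8% ranked higher at E13.5 than at E15.5, whereas 44.1% of regions open in preSertoli cells alone did so. The stages have 1 library each, so stage and library cannot be told apart.

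H3K27ac was measured in E13.5 preSertoli cells only and played no part in choosing the regions. An overlap of at least 1 bp with an H3K27ac domain was found for 16.1% of all merged regions. It was found for 40.2% of the 55192 regions open at both preSertoli stages. Of preSertoli-ES regions, 852 (25.3%; Wilson 95% interval 23.9 to 26.8) had such an overlap. This was lower than the 36.7% (35.7 to 37.6) of the 10165 regions open in preSertoli cells alone, a difference of -11.4 percentage points (Newcombe 95% interval -13.1 to -9.60). It was also lower than the 36.9% (35.3 to 38.5) of the 3572 regions that preSertoli cells shared with exactly 1 of the other 5 types, a difference of -11.6 points (-13.8 to -9.43). These intervals cover counting error over regions only, and neighbouring regions can share a domain. The share lay 18.7 points (17.3 to 20.3) above the 6.56% of regions open in ES cells alone, and that gap is built in because those regions lack a peak in the cells where the mark was measured. All merged regions include many without a preSertoli peak, so the gap above their 16.1% is partly built in too.

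The regions shared with each of the 5 other types were then taken singly. The share of preSertoli-ES regions with H3K27ac differed by -15.2 points (-19.5 to -11.1) from that of regions shared with kidney alone (40.5%), by -14.3 points (-17.7 to -11.0) from heart (39.6%), by -14.1 points (-19.0 to -9.44) from liver (39.4%) and by -11.8 points (-15.6 to -8.20) from skin fibroblasts (37.1%). The regions shared with brain alone came nearest, at 28.5%, and there the interval of the difference (-3.24 points, -6.88 to 0.233) included 0.

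**Figure D2:**
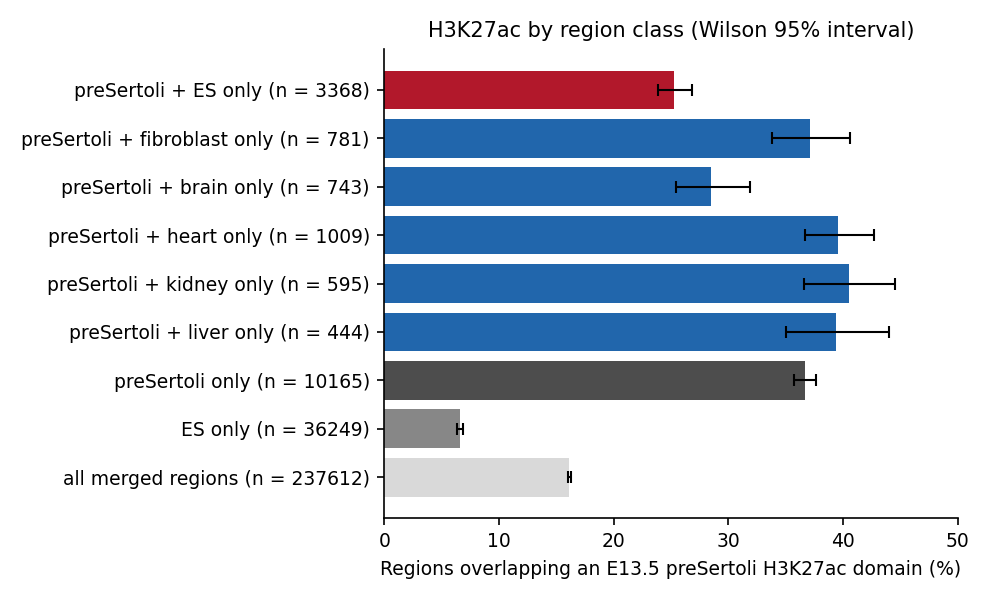
Share of regions that overlap an E13.5 preSertoli H3K27ac domain (x axis, percent) for preSertoli-ES regions (red), regions shared by preSertoli cells with 1 other type (blue), regions of preSertoli cells alone (dark grey), regions of ES cells alone and all merged regions (light greys). Bars start at 0 and whiskers are Wilson 95% intervals; the red bar (25.3%) lies below every blue bar, with brain (28.5%) nearest, and below preSertoli cells alone (36.7%).

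The lower share with H3K27ac went with the ES peak in more than these 3368 regions, but not where all 5 other types were open. Regions open at both preSertoli stages were split by an ES peak and by how many of the other 5 types had one. With 1 other type, 22.5% of 2866 regions with an ES peak carried H3K27ac, against 36.9% of 3572 without. With 2 others the shares were 25.5% with and 36.1% without an ES peak, with 3 others 27.8% with and 35.9% without, and with 4 others 23.2% with and 35.6% without. The with-minus-without differences were -14.4, -10.6, -8.07 and -12.4 points for 1 to 4 others, and all 4 intervals lay below 0. Where all 5 others were open the direction turned, with 55.2% of 20859 regions with an ES peak and 36.8% of 576 without (18.4 points, 14.3 to 22.3). These 20859 were 56.8% of all regions open at both preSertoli stages with an ES peak, so the lower share did not hold for most of them. Without an ES peak the share ran from 35.6% to 36.9% over 0 to 5 other types. Median widths with an ES peak were above those without one (478.5 against 389 bp with no other type), except with 4 others (599 against 646.5 bp).

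**Figure D3:**
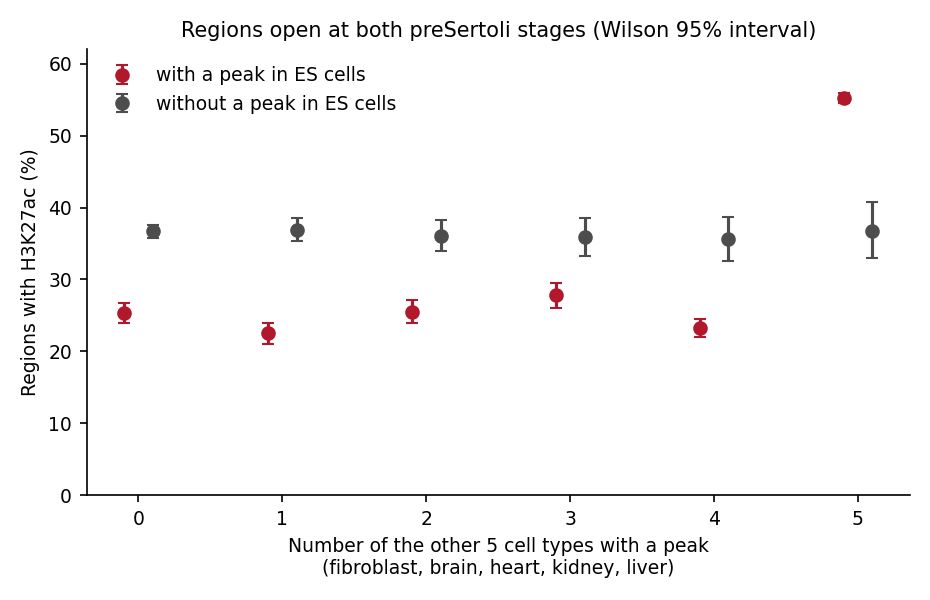
Share of regions with H3K27ac (y axis, percent) against the number of the other 5 cell types with a peak (x axis), for regions open at both preSertoli stages with an ES peak (red) and without one (grey). Whiskers are Wilson 95% intervals; preSertoli-ES regions are the red point at 0 (25.3%), and red lies below grey at 0 to 4 and above it at 5 (55.2% against 36.8%).

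At regions open at 1 preSertoli stage alone the difference was smaller or not resolved. Among regions in none of the 5 other lists and open at E13.5 only, 11.9% of 2816 with an ES peak and 12.2% of 17174 without one carried H3K27ac, a difference of -0.297 points (-1.54 to 1.04). For those open at E15.5 only the shares were 16.0% of 1629 with and 21.1% of 12917 without an ES peak (-5.17 points, -7.01 to -3.18). At regions with no preSertoli peak and 1 other type, the share was higher with an ES peak (8.32% against 5.78%; 2.53 points, 1.79 to 3.33). With 2 other types it was also higher (10.0% against 7.12%; 2.89 points, 1.56 to 4.36). With 3, 4 or 5 other types the intervals included 0. Requiring only the E13.5 list, whatever the E15.5 list, brought the difference between preSertoli-ES regions and regions of preSertoli cells alone to -2.09 points (-3.17 to -0.978), and requiring only the E15.5 list brought it to -5.71 points. With peaks at or above the median score of each list it was -19.5 points. The number of preSertoli-ES regions was 6184 with the E13.5 list alone and 1655 with peaks at or above the median score. With the E13.5 list alone the gap above regions of ES cells alone was 12.2 points.

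The difference was also seen at matched rank of the E13.5 peak. The E15.5 rank was not matched. The median E15.5 percentile was 44.4 for preSertoli-ES regions, 47.4 for regions of preSertoli cells alone and 52.1 for those shared with 1 other type. In each of 10 equal bins of the ranked E13.5 list, the share of preSertoli-ES regions with H3K27ac was below that of regions open in preSertoli cells alone. It was 16.5% against 25.3% in the weakest bin, 20.4% against 41.3% in bin 6, 35.4% against 51.9% in bin 8 and 52.8% (19 of 36) against 69.1% (47 of 68) in the strongest, where the intervals overlapped. When regions of preSertoli cells alone were weighted to the E13.5 rank and width of preSertoli-ES regions, their share was 41.6% and the difference was -16.3 points (-18.2 to -14.5). Weighting the regions shared with 1 of the 5 other types in the same way gave 36.0% and a difference of -10.6 points (-12.8 to -8.48), over the 3359 preSertoli-ES regions that had a match.

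**Figure D4:**
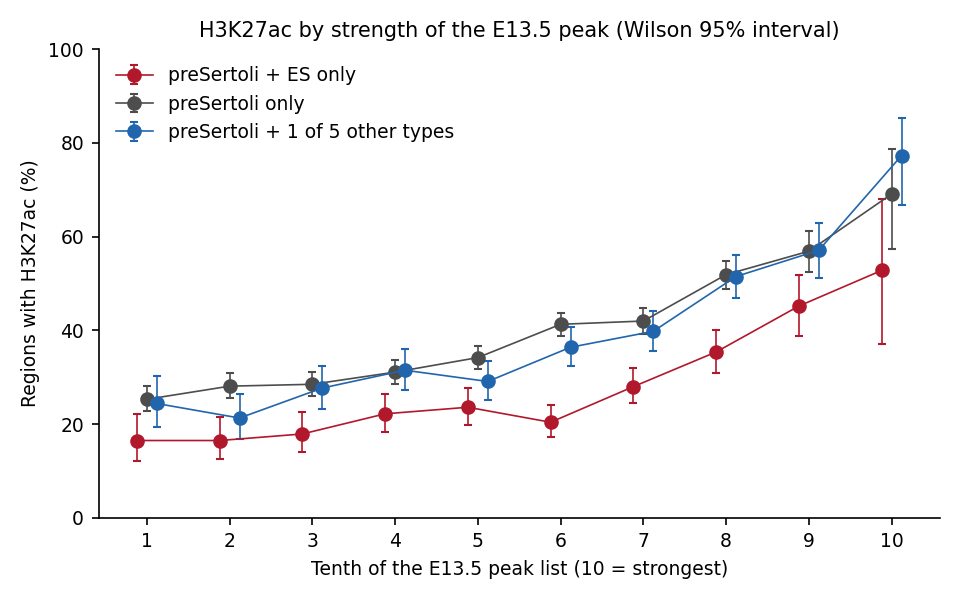
Share of regions with H3K27ac (y axis, percent) by the bin of the E13.5 preSertoli list in which their peak ranks (x axis, 10 equal bins, 10 is the strongest) for preSertoli-ES regions (red), regions of preSertoli cells alone (grey) and regions shared with 1 of the 5 other types (blue). Whiskers are Wilson 95% intervals; red lies below both others in every bin, from 16.5% in the weakest to 52.8% in the strongest.

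Within the preSertoli-ES regions, H3K27ac was more frequent where the preSertoli peaks were stronger, and no more frequent where the ES peak was stronger. Ordered by E13.5 peak and cut into 3 equal parts, the share was 18.6% in the weakest part, 21.9% in the middle and 35.4% in the strongest. Ordered by the E15.5 peak it was 16.3%, 22.8% and 36.8%. Ordered by the ES peak it was 28.0% (25.4 to 30.7), 24.2% (21.8 to 26.8) and 23.7% (21.3 to 26.3) from weakest to strongest. These intervals overlapped, which does not show equal shares, and a fall with the strength of the ES peak was not tested. In 34 regions all 3 peaks ranked above percentile 75, and 18 of these (52.9%, 36.7 to 68.5) carried H3K27ac.

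On all autosomes the difference had the same direction. The share with H3K27ac ran from 18.4% on chromosome 5 to 36.1% on the X chromosome (13 of 36) over the 20 chromosomes with preSertoli-ES regions, with a median of 26.2%. Regions of preSertoli cells alone ran from 31.7% to 42.3% over the same chromosomes, with a median of 37.2%. PreSertoli-ES regions were lower on 19 of 20 chromosomes, with differences from -22.9 points on chromosome 10 (19.4% against 42.3%) to -5.69 points on chromosome 11 (26.0% against 31.7%), and were higher on X alone (36.1% against 31.9%). They were also below regions shared with 1 of the 5 other types on 19 of 20 chromosomes, with X again the exception (36.1% against 26.7% of 15 regions).

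**Figure D5:**
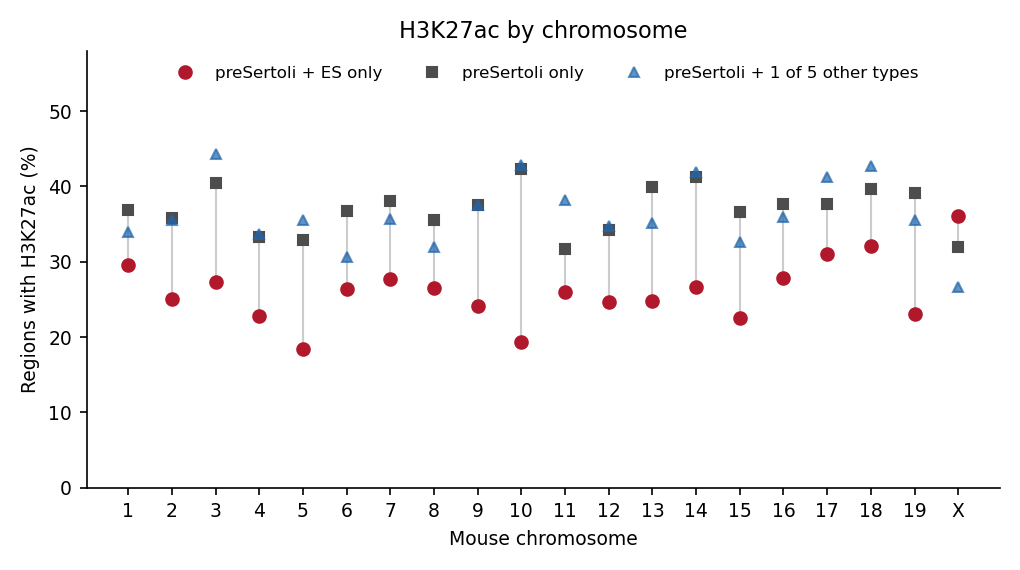
Share of regions with H3K27ac (y axis, percent) on each chromosome (x axis) for preSertoli-ES regions (red circles), regions of preSertoli cells alone (grey squares) and regions shared with 1 of the 5 other types (blue triangles). Red lies lowest on all 19 autosomes and highest on X, where it stands for 13 of 36 regions.

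Where preSertoli-ES regions did carry H3K27ac, the domains had the same median width as at regions of preSertoli cells alone and at regions shared with 1 of the 5 other types. The 852 regions overlapped 831 domains, 2.91% of the 28586 in the list, and 22 domains held 2 such regions, the most in any. That median was 3000 bp in all 3 classes, against 2400 bp at regions open in all 8 lists and 2200 bp over the whole list of domains. PreSertoli-ES regions lay fully inside their domains in 80.4% of cases, against 91.0% of regions of preSertoli cells alone. In 293 domains, of median width 1800 bp, preSertoli-ES regions were the only DNase regions of any list. Of the other domains, 176 held a region open in all 8 lists, 140 a region of ES cells alone and 103 a region of preSertoli cells alone. The 2516 preSertoli-ES regions without the mark lay a median of 21437 bp from the nearest domain, and 27.1% lay beyond 50 kb, against 17953 bp and 22.4% for regions of preSertoli cells alone.

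Neighbouring regions were counted around preSertoli-ES regions. They hold an ES peak by the rule, and both classes set beside them lack one, so distances to further ES peaks are partly set by that choice and are a description. A region open in ES cells alone was found within 10 kb of 49.0% (47.3 to 50.7) of them, against 37.6% (36.7 to 38.5) of regions of preSertoli cells alone and 37.2% of regions shared with 1 of the 5 other types. The same share was 42.5% for all regions open at both preSertoli stages and 51.0% for regions of ES cells alone. A region of preSertoli cells alone was found within 10 kb of 21.4% (20.0 to 22.8) of them, against 27.6% (26.8 to 28.5) of regions of preSertoli cells alone and 27.4% of regions shared with 1 of the 5 other types. They were also somewhat closer to regions open in all 8 lists, with 37.3% within 10 kb, against 32.5% and 33.2% for the same classes. The nearest merged region of any kind belonged to ES cells alone for 19.6% of preSertoli-ES regions, for 11.6% of regions of preSertoli cells alone and for 15.3% of all regions. It was itself a preSertoli-ES region in 2.79% of cases, against 1.38% for all regions. This was not particular to them. A region of preSertoli cells alone was the nearest for 7.95% of its own class and for 4.18% of all regions.

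The regions were spread over the genome, most often 1 to a 100 kb window. They made up 7.61% (6.73 to 8.59) of the regions open at both preSertoli stages on chromosome 8, the highest share, and 4.40% (3.69 to 5.23) on chromosome 6, the lowest. Chromosome 11 held the most (315), and X held 36. None could lie on the Y chromosome, where the ES list had no peak. On a grid of 100 kb windows, 2702 windows held at least 1 preSertoli-ES region, 2154 held exactly 1, and 100 held 3 or more, with 9.44% of all such regions. Another preSertoli-ES region lay within 10 kb of 11.8% of them. A preSertoli-ES region lay as near to 8.32% of regions of preSertoli cells alone and 6.98% of regions of ES cells alone. Clustering was not tested.

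The densest window lay at chr4:140800001-140900000, with 6 preSertoli-ES regions of which 2 carried H3K27ac, among 51 merged regions. The next was at chr8:48800001-48900000, with 5 of 18 merged regions, 3 of them with H3K27ac. Of 13 windows with 4 such regions, the 3 listed first, each with 2 that carried the mark, were at chr4:149400001-149500000, chr6:120100001-120200000 and chr9:45100001-45200000. The chromosome 6 window also held 6 regions of ES cells alone and none of preSertoli cells alone. The chromosome 9 window held 5 regions of preSertoli cells alone and 2 of ES cells alone.

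The strongest individual regions were taken by the percentile in the weakest of their 3 lists. The leading one with H3K27ac lay at chr2:157243904-157245058, with percentiles of 88.7 at E13.5, 87.1 at E15.5 and 87.4 in ES cells, and overlapped a domain of 4800 bp. The second, at chr8:8619464-8621444, had percentiles of 85.5, 95.9 and 88.3 in the same order and overlapped a domain of 1800 bp. The third, at chr17:23737582-23738821, had percentiles of 84.4, 91.9 and 86.2 and overlapped a domain of 6000 bp, the widest of these 10. High ranks in all 3 lists follow from how these regions were picked.

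Next came regions at chr11:117299439-117300172 and chr9:86635939-86636824, where the percentiles of the region on chromosome 9 were 95.3, 91.6 and 83.2. The list of 10 was completed by regions at chr2:168616428-168617202, chr4:140851543-140852951, chr19:5695832-5696923, chr5:120942302-120942897 and chr17:22810823-22811668. The chromosome 4 region lay in the densest window named above and was strongest in ES cells, at percentile 91.5. The last, on chromosome 17, stood 64821 bp from the nearest peak of an excluded list, whereas the leading region on chromosome 2 stood 3062 bp from one.

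Regions of similar rank were found without H3K27ac. The leading one lay at chr4:126001765-126003160, with percentiles of 94.5 at E13.5, 92.6 at E15.5 and 86.6 in ES cells, and it was 2364 bp from the nearest domain and 204 bp from a peak of an excluded list. The second, at chr3:34694239-34695002, had percentiles of 84.1, 89.6 and 92.6. It was the most isolated of the named regions without the mark, with the nearest domain 37038 bp away, the nearest excluded peak 41347 bp away and the nearest region open in all 8 lists 143964 bp away. The next were at chr4:140393583-140394488, chr11:100543007-100543707 and chr4:126332579-126333053, at 23512, 29493 and 19947 bp from a domain.

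RNA-seq of E15.5 preSertoli cells (47.8, 56.0 and 51.7 M expected counts in libraries 1, 2 and 3) was used to check the label and to measure transcripts of cells that share a program with ES cells. Levels are in CPM, the share of a library's expected counts that fell to a gene, on 1 scale for all libraries, without correction for gene length. Expressed means that each of the 3 libraries reached 1 CPM, as was so for 47.1% of 27697 symbols, and 34.7% reached 10 CPM in each. All 10 Sertoli cell markers were expressed. Sox9 stood at 278, 283 and 217 CPM, and Dmrt1, a transcription factor that keeps the male fate, at 126, 127 and 128 CPM. Summed over the list, Sertoli cell markers reached 8323, 8941 and 7854 CPM. Markers of other cells of the testis were also measured. All 5 fetal Leydig cell markers were expressed, with a sum of 1675, 1990.2 and 1215 CPM, as were 3 of 4 endothelial markers (30.2, 29.9 and 28.4 CPM) and 1 of 4 blood and macrophage markers (2.78, 3.54 and 2.84 CPM). Of the Leydig cell markers, Cyp17a1 (677, 819.7 and 531 CPM) and Cyp11a1 (388, 466 and 289 CPM) were above Sox9 in each library. Hsd3b1 and Insl3 were below Sox9 in each library, and Star was below it in library 3 alone. The DNase and ChIP cells have no RNA here, and the part of other cells in the peaks was not tested.

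Germ cells could be held in a sort of fetal testis cells. Of 14 germ cell markers, 13 were listed and 10 were expressed, with a summed level of 92.9, 71.4 and 77.4 CPM. Ddx4, a germ cell RNA helicase, stood at 15.2, 10.1 and 11.5 CPM, and Dazl, a germ cell RNA-binding protein, at 10.8, 5.87 and 6.46 CPM. Those not expressed were Nanos2 (0.335, 0.286 and 0.367 CPM), Nanos3 and Stra8, and none was at 0 in all libraries. These levels are from E15.5 RNA; whether germ cells contributed to the DNase peaks was not tested.

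Core pluripotency genes were low. Of 8 ES cell markers 2 were expressed, Pou5f1 (5.67, 4.62 and 5.49 CPM), which is also a germ cell marker, and Utf1 (4.12, 4.02 and 2.92 CPM). Nanog stood at 0.697, 1.01 and 0.825 CPM, Sox2 at 0.230, 0.161 and 0.0967 CPM, and the growth factor gene Fgf4 was at 0 in libraries 1 and 3 and at 0.0179 CPM in library 2. In the wider list of 26 pluripotency genes, 25 were listed, 13 were expressed, near the background share, and 4 reached 10 CPM in every library. Those 4 were the transcription factor Mycn (83.7, 91.7 and 61.1 CPM), the pluripotency factor Klf4 (44.0, 53.1 and 44.8 CPM), the DNA methyltransferase Dnmt3b (27.0, 26.6 and 29.4 CPM) and the methylcytosine oxidase Tet1 (23.2, 23.4 and 21.4 CPM). Nr0b1, an orphan nuclear receptor that acts in gonads and in ES cells, stood at 10.6, 10.8 and 8.12 CPM. Of 23 Sertoli regulators 22 were expressed, and Nr5a2, which is on both lists, stood at 1.11, 1.27 and 0.986 CPM. Regions were not assigned to genes here, so these levels stand beside the chromatin data without a link to single regions.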

How the data were processed

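Per the submitters' processing notes, all data are on mm9. The tools named there for DNase-seq are bedtools, SAMtools and BWA 0.6.1-r104, those for RNA-seq are RSEM 1.2.0, Bowtie 0.12.7 and CASAVA 1.8.2, and those for ChIP-seq are SICER, Bowtie and CASAVA 1.8.2. Neither caller nor threshold of the DNase peaks is given in these sources. For each peak the lists deposited by the authors hold a score (up to 1000), a signal height and a −log10 p-value, in columns without a header that were recognised by their values. Peaks were ranked within a list by score and, where scores were tied, by signal height. The −log10 p-value was not used. For H3K27ac the authors deposited positions of domains alone, as a single list, and how the ChIP libraries and inputs were combined is not stated. Its widths are multiples of 200 bp.

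The RNA-seq columns deposited by the authors are square-root transformed, per the file headers. Squared values behaved as scaled expected counts, being whole hundredths of a read in 100% of cases within a tolerance of 0.05 hundredths, and were divided by their sum to give CPM. Columns carry only a number. For repeated symbols the row of highest mean was kept.

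Regions were merged and compared with Python 3.11.15, pandas 2.3.3 and NumPy 2.4.6 in code tested on simulated lists. Shares have Wilson and differences Newcombe 95% intervals, which cover counting error only. A region was within a class by the lists with a peak in it, whatever the number of peaks. Named regions are the 10 with and the 5 without H3K27ac whose percentile in their weakest list was best, and the 5 windows of 100 kb with most regions, ties going to more H3K27ac and then to position. The members, gene lists and rules were chosen with earlier results of these data known. No mm9 genome or annotation was used, so regions are given without sequence, motif or gene.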

Additional observations from a re-analysis of the deposited data

How the results depend on the processing

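The direction of the H3K27ac differences did not turn under any alternative run. With peaks joined within 150 bp, no merging, 50% of the region inside a domain, or domains of at least 1000 bp, the 3 differences stayed within their intervals; the share of preSertoli-ES regions with H3K27ac was 26.8% without merging. With equal numbers of peaks there were 1585 preSertoli-ES regions, 27.8% with H3K27ac, and the differences were -14.6 points from regions of preSertoli cells alone, -14.4 from regions shared with 1 of the 5 other types and 21.1 from regions of ES cells alone. With peaks at or above the median score the values were 1655 regions, 30.2%, -19.5, -16.3 and 22.5 points. With the E13.5 list alone for preSertoli cells they were 6184 regions, 19.2%, -2.09, -8.85 and 12.2 points, and with the E15.5 list alone 22.3%, -5.71, -8.34 and 15.3 points. Weighting by E13.5 rank and width moved the difference from preSertoli cells alone to -16.3 points. The causes were not tested, beyond the regions each setting adds or drops. Ranking by signal height gave the same order of peaks as the score with its ties, so it is no check of the percentiles. Of 37 distinct germ cell and pluripotency genes listed, 22 were expressed, 22 to 24 when 1 RNA-seq library was left out, and 7 at 10 CPM in all 3 libraries. Over all symbols, 47.1% were expressed and 34.7% reached 10 CPM in all 3 libraries. Alternatives that need genes near regions or promoters were not run, since no mm9 annotation was used. No paired analysis was possible because the DNase groups have 1 library each, the H3K27ac libraries share 1 list, and no comparison was made between groups with shared replicate numbers. Depth is unknown for the DNase lists, so weak regions may be missed in any of them.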
